A study of Mus musculus with 15 samples.

Results

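Fetal-like and regenerative markers of the mouse intestinal epithelium were followed through 5 conditions of small intestinal organoids, self-organizing cultures of primary crypt cells. The set was taken by gene symbol and comprised 7 of the 78298 genes listed, namely *Ly6a*, *Ly6d*, *Clu*, *Spp1*, *Il1rn*, *Anxa1* and *Gja1*. All 7 passed the filter on low counts over the 15 libraries, though *Spp1* and *Gja1* had at most 20 reads in each library outside the spheroids. Poly-A RNA had been sequenced from 15 libraries, 3 per condition, to ask how raised SOX9, a transcription factor of crypt cells, alters the state of the epithelium.

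Every condition was a lentivirally transduced, antibiotic-selected stable line whose transgenes ran from the L30 promoter. The control, Halo-NLS, carried L30prom_V5-Halo-GDGAGLIN-NLS_IRES_Puro, a HaloTag sent to the nucleus. SOX9-Halo_budding organoids carried L30prom_Sox9-GDGAGLIN-Halo-V5_IRES_Puro and SOX9-mEGFP_budding organoids L30prom_Sox9-GDGAGLIN-mEGFP-V5_IRES_Puro. SOX9-Halo_spheroid cultures held the SOX9-Halo transgene and also L30prom_H2B-GDGAGLIN-mEGFP-V5_IRES_Zeo, and SOX9-mEGFP_spheroid cultures held the SOX9-mEGFP transgene and also L30prom_H2B-GDGAGLIN-mScarletI-V5_IRES_Neo. The spheroids, round cysts without buds, had been kept to later passages than the budding organoids. Round shape, passage and the second transduction therefore cannot be told apart, and each condition was 1 line. Replicates were labelled by number without a statement that they came from separate mice or transductions, so p-values measure the spread between these libraries.

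Adult intestinal crypts are renewed by LGR5-positive stem cells. After injury, or when fetal progenitors are grown as spheroids, the epithelium instead expresses a set of genes led by *Ly6a* (Sca-1), *Clu* (clusterin) and *Anxa1*, and YAP and TEAD factors are known regulators of this state. The members act in different places: LY6A and LY6D are surface proteins held by a GPI anchor, clusterin, osteopontin (*Spp1*) and the interleukin-1 receptor antagonist (*Il1rn*) are secreted, annexin A1 binds membrane phospholipids in a calcium-dependent way, and connexin 43 (*Gja1*) forms gap junctions.

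The promoters of the members are shown because all 7 were high in the same cultures. In the window of 250 bases before the start of each canonical transcript (GENCODE M39 on GRCm39), 3 kinds of short motif were searched on both strands: GGAATG for TEAD factors, ACAAAG and ACAATG for SOX factors, and TGANTCA for AP-1. A match was found in 4 of the 7 windows. Those 4 are printed 5′ to 3′ on the strand of the gene, with the matched letters in capitals. The window of *Spp1* (chr5:104581915-104582164, + strand) held a TEAD match 69 bases and an ACAATG match 175 bases before the start, both read on the opposite strand. That of *Il1rn* (chr2:24226615-24226864, + strand) held an AP-1 match at 134 bases and an ACAAAG match at 223 bases. The window of *Ly6a* (chr15:74869484-74869733, − strand) held ACAAAG at 210 bases, and that of *Gja1* (chr10:56253170-56253419, + strand) an AP-1 match at 43 bases.
Spp1: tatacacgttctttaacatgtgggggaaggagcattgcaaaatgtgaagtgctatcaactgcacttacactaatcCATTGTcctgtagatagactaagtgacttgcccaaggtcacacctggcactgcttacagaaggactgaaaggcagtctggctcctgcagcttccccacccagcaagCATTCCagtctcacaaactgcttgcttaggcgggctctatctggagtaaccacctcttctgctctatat
Il1rn: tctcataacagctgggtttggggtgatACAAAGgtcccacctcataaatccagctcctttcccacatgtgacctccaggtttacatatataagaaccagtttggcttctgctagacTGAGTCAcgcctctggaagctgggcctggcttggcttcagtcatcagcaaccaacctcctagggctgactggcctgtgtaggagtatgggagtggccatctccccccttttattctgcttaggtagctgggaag
Ly6a: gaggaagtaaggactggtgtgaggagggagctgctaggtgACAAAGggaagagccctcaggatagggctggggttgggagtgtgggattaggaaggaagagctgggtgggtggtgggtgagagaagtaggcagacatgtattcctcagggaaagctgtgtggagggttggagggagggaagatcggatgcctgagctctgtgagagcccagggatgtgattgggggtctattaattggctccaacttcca
Gja1: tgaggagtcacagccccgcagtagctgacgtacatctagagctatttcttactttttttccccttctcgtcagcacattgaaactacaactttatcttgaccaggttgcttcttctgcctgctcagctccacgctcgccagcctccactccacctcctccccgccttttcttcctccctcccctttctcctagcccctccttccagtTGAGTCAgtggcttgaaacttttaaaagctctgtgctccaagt
Over 21710 promoter windows of the same length, GGAATG was present in 12.1%, ACAAAG in 16%, ACAATG in 9.42% and TGANTCA in 6.19%. The share that held any of the 4 motifs was not counted, so the number of members with a match has no background. These matches describe letters in a window and are no evidence of binding. The windows of *Anxa1*, *Clu* and *Ly6d* held none of the 4 motifs.

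Between 28062722 and 40559766 reads per library were counted on genes (median 33491297). Levels are given as CPM, counts per 1000000 counts of the library after TMM scaling. *Sox9*, the overexpressed gene, lay at 9.1 to 22.9 CPM in Halo-NLS and at 39.8 to 704.9 CPM in the 12 SOX9 libraries, with SOX9-Halo_budding replicate 1 the lowest at 39.8 CPM. These counts do not separate the transgene from the endogenous gene. Of 8 epithelial markers the summed level was 5705 to 12176 CPM in the 15 libraries, and 1 of them, *Cldn3*, was listed at 0 in all libraries. Single markers within the sum moved with the conditions. In SOX9-Halo_spheroid, *Vil1* (villin, of the brush border) was at 96.7 to 138.1 CPM against 1016 to 1752 CPM in Halo-NLS, *Cldn7* at 306.3 to 359.4 against 1112 to 1337 CPM, and *Epcam* at 440.1 to 483.3 against 919.4 to 1058 CPM. In SOX9-mEGFP_spheroid, *Vil1* (687.2 to 840.5 CPM) and *Cldn7* (614.6 to 649.9 CPM) also lay below Halo-NLS, and *Epcam* (990.3 to 1091 CPM) overlapped with it. *Krt8* was higher there, at 4312 to 4636 CPM against 1909 to 3713 CPM in Halo-NLS. *Krt18* was higher in both spheroids, at 1402 to 2143 CPM against 380.1 to 715.5 CPM in Halo-NLS. Their part in the levels of the members was not tested. The 10 fibroblast and smooth muscle markers together reached at most 3.71 CPM and the 6 endothelial markers at most 1.57 CPM, in both cases in Halo-NLS. The 8 blood cell markers summed to 2.60 to 6.34 CPM in Halo-NLS and budding organoids, 6.64 to 11.35 CPM in SOX9-mEGFP_spheroid and 3.41 to 8.22 CPM in SOX9-Halo_spheroid. The summed level of 7 squamous epithelial markers moved with the members. It was 0.205 to 1.95 CPM in the 9 Halo-NLS and budding libraries, 226.3 to 398.2 CPM in SOX9-mEGFP_spheroid and 134.9 to 219.6 CPM in SOX9-Halo_spheroid. *Dsg3* made up 216.9 to 389.1 CPM of the sum in SOX9-mEGFP_spheroid, and *Dsg3* (89.0 to 127.6 CPM) and *Ivl* (36.8 to 83.2 CPM) nearly all of it in SOX9-Halo_spheroid. Of the other squamous markers, *Trp63* and *Krt5* had 0 to 7 and 10 to 23 reads per spheroid library, against 0 to 18 each in the 9 Halo-NLS and budding libraries. *Krt14* had 120 to 187 reads in SOX9-mEGFP_spheroid and 200 to 253 in SOX9-Halo_spheroid, against 0 to 9 in Halo-NLS and at most 1 in budding libraries. *Krt6a* had 52 to 61 and 15 to 18 reads in these spheroids, and *Krt13* 1 to 5 and 16 to 28. In Halo-NLS they had 0 to 1 and 0 to 3 reads. Whether squamous-like cells contributed to the levels of the members was not tested. With library sizes alone in place of TMM, the median log2 fold change of all genes against Halo-NLS was 0.27 to 0.31 in the 4 SOX9 conditions, where TMM gave -0.01 to 0.03. The share of calls that were higher then went from 47.1% to 58.2% in SOX9-Halo_spheroid, 55.8% to 69% in SOX9-mEGFP_spheroid, 66.5% to 90.7% in SOX9-Halo_budding and 72.3% to 85.2% in SOX9-mEGFP_budding, and no member changed its call. In bulk RNA, more cells with a transcript and more transcript per cell cannot be told apart.

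All 7 markers were higher in spheroids than in Halo-NLS organoids, and in both lines (edgeR quasi-likelihood test, adjusted p at most 0.01, log2 fold change of at least 1). Summed over the set, they took 0.00111% to 0.00246% of the counts in Halo-NLS, 0.622% to 0.716% in SOX9-mEGFP_spheroid and 0.409% to 0.487% in SOX9-Halo_spheroid. In the budding organoids, which already carried the SOX9 transgene, the sum was 0.00278% to 0.00981% of the counts, and none of the 7 passed the test against Halo-NLS. For comparison, 13.6% of the 17560 genes tested were called higher in SOX9-Halo_spheroid than in Halo-NLS and 15.3% in SOX9-mEGFP_spheroid. Both comparisons use the same Halo-NLS libraries. Several of the members, *Ly6a*, *Clu* and *Anxa1* among them, are markers that the study itself inspected in these libraries, so the count is not independent evidence of their direction.

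**Figure D1:**
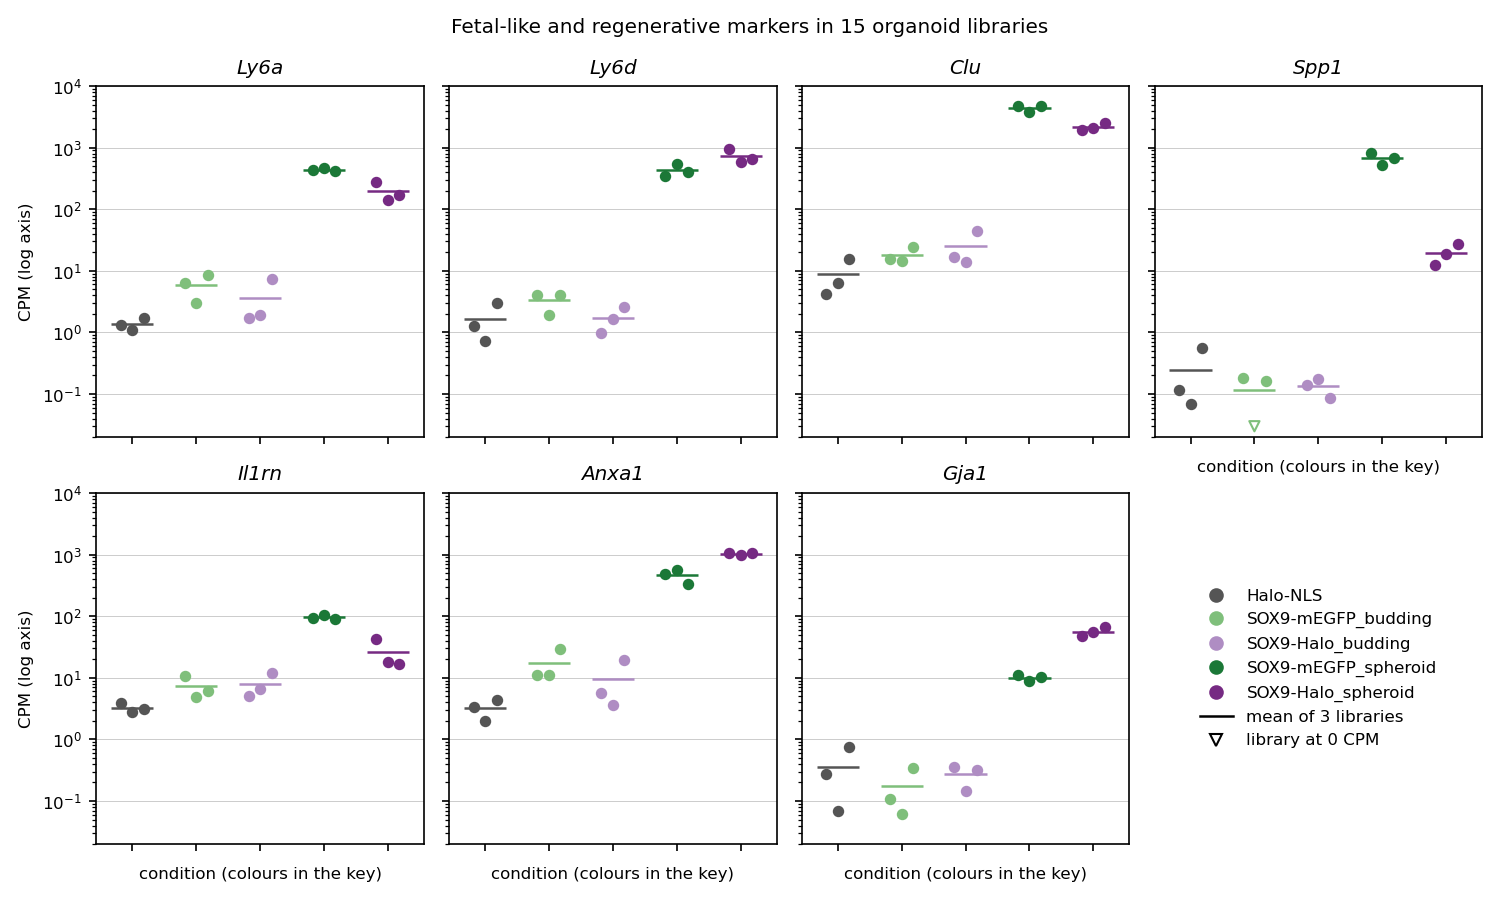
CPM of the 7 markers on a log axis in each of the 15 libraries, 1 point per library, coloured by condition, with the mean of the 3 libraries as a bar and the 1 library at 0 CPM as an open triangle at the foot of the axis. For every marker the 6 spheroid libraries lie above the 9 other libraries, and the spheroid lines do not overlap.

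*Ly6a* encodes Sca-1, a surface antigen used to sort fetal-like intestinal cells (chr15:74863840-74869880, − strand). It measured 1.32, 1.09 and 1.69 CPM in the Halo-NLS replicates, 34, 32 and 45 reads. SOX9-mEGFP_budding libraries were at 6.30, 2.97 and 8.47 CPM and SOX9-Halo_budding libraries at 1.68, 1.94 and 7.36 CPM. In SOX9-mEGFP_spheroid it reached 438.2, 463.6 and 410.7 CPM, and in SOX9-Halo_spheroid 276.6, 141.4 and 168.1 CPM. The order by mean was SOX9-mEGFP_spheroid, SOX9-Halo_spheroid, SOX9-mEGFP_budding, SOX9-Halo_budding and Halo-NLS, and each of the lower 3 overlapped with its neighbour in that order. The rise over Halo-NLS was 8.32 ± 0.65 (log2 fold change ± SE, adjusted p = 2.30e-07, edgeR) in SOX9-mEGFP_spheroid and 7.16 ± 0.62 (adjusted p = 2.74e-07) in SOX9-Halo_spheroid. Against the budding organoids of the same line it was 6.21 ± 0.59 and 5.74 ± 0.58. *Ly6a* shares 223 exon bases, 4.8% of its exons, with the antisense gene *Gm28068*, and reads there were counted for neither gene because counting ignored strand. Reads that also matched a near-identical Ly6 paralog were dropped as non-unique, so the level of *Ly6a* may be understated.

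*Ly6d*, another GPI-anchored Ly6 protein, known from stratified epithelia and early lymphoid cells, lies 228.2 kb from *Ly6a* (chr15:74633902-74635597, − strand). Its Halo-NLS values were 1.29, 0.718 and 3.00 CPM. The budding lines overlapped with them, at 4.02, 1.95 and 4.11 CPM in SOX9-mEGFP_budding and 0.996, 1.68 and 2.56 CPM in SOX9-Halo_budding. Spheroids were at 340.3, 542.1 and 399.7 CPM in the SOX9-mEGFP line and at 934.8, 586.2 and 649.3 CPM in the SOX9-Halo line. *Ly6d* thus had the highest fitted rise of the 7 in SOX9-Halo_spheroid against Halo-NLS, 8.76 ± 0.59 (adjusted p = 2.44e-08, edgeR), and rose by 8.00 ± 0.57 in SOX9-mEGFP_spheroid (adjusted p = 1.03e-07). Unlike *Ly6a*, its mean was higher in the SOX9-Halo than in the SOX9-mEGFP spheroids.

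The stretch of chromosome 15 around these members (chr15:74586682-75471331) holds 21 genes of the Ly6/uPAR family, *Ly6a* and *Ly6d* included, of which 11 had enough counts to be tested. Of the 9 tested besides *Ly6a* and *Ly6d*, 8 were called higher in SOX9-mEGFP_spheroid than in Halo-NLS, beside 15.3% of all genes. In SOX9-Halo_spheroid 4 of the 9 were called higher, beside 13.6% of all genes, and none of the 9 was lower in either. *Ly6e*, a broadly expressed member known to restrict viral entry, was the most abundant of them in counts. It rose from 114.5 to 201.6 CPM in Halo-NLS to 2046 to 2717 CPM and 1263 to 1453 CPM in the SOX9-mEGFP and SOX9-Halo spheroids (3.95 ± 0.29 and 3.17 ± 0.28). *Ly6c1* had 0 counts in all Halo-NLS libraries. With a floor of 3 counts per library it was at least 79.9-fold higher in SOX9-mEGFP_spheroid and at least 39.5-fold higher in SOX9-Halo_spheroid. *Lynx1*, a modulator of nicotinic receptors, rose by 5.10 ± 0.49 and 4.95 ± 0.49, and *Psca*, prostate stem cell antigen, by 3.84 ± 0.68 and 5.46 ± 0.72.
*Gml* (3.64 ± 0.52), *Gml2* (3.83 ± 0.61), *Ly6m* (6.91 ± 0.95) and *Ly6g2* (2.21 ± 0.39) passed the test in SOX9-mEGFP_spheroid. In SOX9-Halo_spheroid their log2 fold changes were 1.67 ± 0.51, 1.99 ± 0.63, 2.72 ± 0.84 and -0.44 ± 0.38, none past the threshold. *Slurp1* had too low a mean count to be called in either. The median of all genes tested on chromosome 15 was 0.36 in SOX9-mEGFP_spheroid and -0.08 in SOX9-Halo_spheroid against Halo-NLS, beside 0.03 and -0.01 for all genes. In SOX9-mEGFP_budding it was 0.37 and in SOX9-Halo_budding -0.10, beside 0.03 and 0.01.

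**Figure D2:**
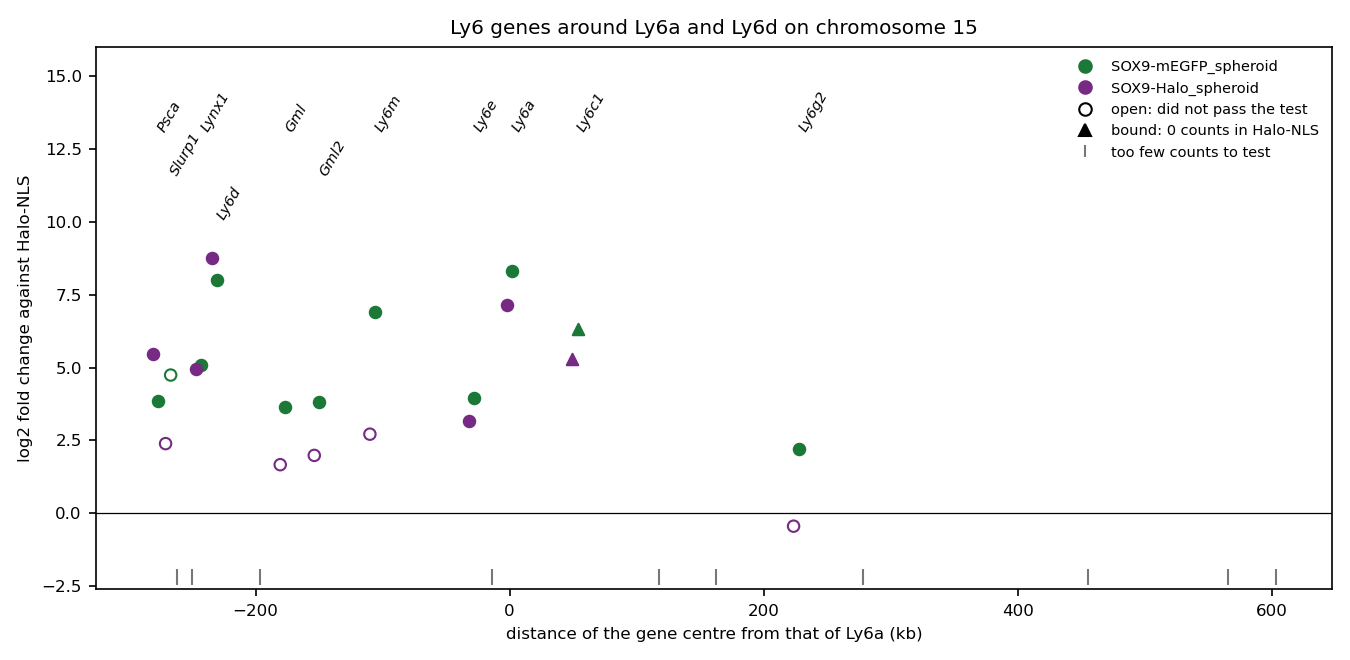
Log2 fold change against Halo-NLS of the 11 tested Ly6 genes around *Ly6a* and *Ly6d*, by distance of the gene centre from that of *Ly6a* in kb, with SOX9-mEGFP_spheroid in green and SOX9-Halo_spheroid in purple. Filled symbols passed the test, triangles are lower bounds for *Ly6c1*, and grey ticks mark the 10 genes with too few counts. 8 of the 9 neighbours are filled in green and 4 in purple.

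*Clu* encodes clusterin, a secreted chaperone that marks revival stem cells of the injured gut (chr14:66190200-66218999, + strand). It measured 4.25, 6.39 and 15.7 CPM in Halo-NLS, 15.3, 14.4 and 24.6 CPM in SOX9-mEGFP_budding and 17.0, 13.7 and 44.0 CPM in SOX9-Halo_budding. The control overlapped with both budding lines. Spheroids stood far above, at 4729, 3821 and 4805 CPM in SOX9-mEGFP_spheroid and 1898, 2071 and 2518 CPM in SOX9-Halo_spheroid. Clusterin transcripts were 8.99 ± 0.63 higher on the log2 scale in SOX9-mEGFP_spheroid (adjusted p = 9.32e-08, edgeR) and 7.95 ± 0.61 higher in SOX9-Halo_spheroid (adjusted p = 8.47e-08) than in Halo-NLS. Within the lines the difference from budding organoids was 7.94 ± 0.61 and 6.44 ± 0.57.

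*Spp1* encodes osteopontin, a secreted phosphoprotein that binds CD44 and integrins (chr5:104582165-104589235, + strand). It was close to the limit of counting outside the spheroids, with 3, 2 and 15 reads in Halo-NLS, 5, 0 and 7 in SOX9-mEGFP_budding and 6, 6 and 3 in SOX9-Halo_budding, all at or under 0.562 CPM. In SOX9-Halo_spheroid it was at 12.4, 18.8 and 27.0 CPM. In SOX9-mEGFP_spheroid it was at 812.9, 529.6 and 680.5 CPM, the widest gap between the spheroid lines among the 7. The rise over Halo-NLS was 11.40 ± 0.69 in SOX9-mEGFP_spheroid (adjusted p = 2.61e-08, edgeR) and 6.28 ± 0.60 in SOX9-Halo_spheroid (adjusted p = 6.56e-07). Because these folds rest on a baseline of a few reads, leaving out Halo-NLS replicate 3, the one with 15 reads, raised them to 12.79 and 7.68. *Spp1* is also a product of macrophages. The summed blood cell markers given above were highest in SOX9-mEGFP_spheroid, but their range overlapped with that of SOX9-Halo_spheroid. In SOX9-mEGFP_spheroid *Cd68* had 135 to 202 reads per library and *Csf1r* 74 to 188, whereas *Adgre1* had 0, *Lyz2* 0 to 1 and *Itgam* 7 to 30. In SOX9-Halo_spheroid *Cd68* had 111 to 228 reads, *Csf1r* 2 to 11, *Adgre1* 0 to 2, *Lyz2* 0 and *Itgam* 0 to 1. In SOX9-mEGFP_budding *Lyz2* had 20 to 30 reads and *Itgam* 77 to 109. The part of the blood cell markers in the level of *Spp1* was not tested, and 4 of the 8 had at most 3 counts in each library of SOX9-mEGFP_spheroid. *Gm42793* on the same strand shares 362 bases, 12.7%, of the *Spp1* exons, and reads there were counted for neither.

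*Il1rn*, the secreted antagonist of the interleukin-1 receptor (chr2:24226865-24241506, + strand), showed the smallest rise of the set from budding organoids to spheroids in both lines. Its values were 3.86, 2.74 and 3.07 CPM in Halo-NLS, 10.7, 4.92 and 6.08 CPM in SOX9-mEGFP_budding, and 5.14, 6.61 and 12.1 CPM in SOX9-Halo_budding. All 6 budding libraries lay above the 3 Halo-NLS libraries, though neither budding line passed the test (log2 fold change 1.17 ± 0.41, adjusted p = 0.0653, and 1.30 ± 0.41, adjusted p = 0.0397, edgeR). SOX9-mEGFP_spheroid libraries were at 92.9, 104.0 and 89.8 CPM and SOX9-Halo_spheroid libraries at 43.3, 18 and 16.7 CPM. These correspond to rises of 4.89 ± 0.46 (adjusted p = 1.18e-06) and 3.01 ± 0.43 (adjusted p = 3.75e-05) over Halo-NLS. In the SOX9-Halo line the rise from budding to spheroid, 1.71 ± 0.40 (adjusted p = 0.00303), was the one among the 28 spheroid results against Halo-NLS or budding organoids that did not hold under all alternatives. With replicate number as a block and the 6 libraries of this line alone it was 1.60 with adjusted p = 0.0262, without the block 1.67 with adjusted p = 0.0166. Leaving out SOX9-Halo_budding replicate 1 or 2 or SOX9-Halo_spheroid replicate 1 also ended the call (adjusted p = 0.0187, 0.0141 and 0.0226).

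*Anxa1* encodes annexin A1, which ends inflammation through formyl peptide receptors and aids epithelial repair (chr19:20350792-20368374, − strand). It measured 3.31, 2.02 and 4.35 CPM in Halo-NLS, 11.0, 11.2 and 29.1 CPM in SOX9-mEGFP_budding and 5.62, 3.68 and 19.4 CPM in SOX9-Halo_budding. SOX9-mEGFP_budding lay wholly above Halo-NLS, and SOX9-Halo_budding overlapped with both. In contrast to *Ly6a* and *Clu*, spheroids of the SOX9-Halo line had the higher values, 1045, 970.3 and 1047 CPM, against 483.3, 570.3 and 334.6 CPM in the SOX9-mEGFP line. The rises over Halo-NLS were 8.31 ± 0.70 (adjusted p = 2.10e-07, edgeR) and 7.17 ± 0.67 (adjusted p = 1.07e-06). Genes of chromosome 19 as a whole had a median log2 fold change of -0.79 over 655 genes in SOX9-mEGFP_spheroid against Halo-NLS and of -0.06 in SOX9-Halo_spheroid. In the budding organoids against Halo-NLS this median was -0.62 in SOX9-Halo_budding and -0.33 in SOX9-mEGFP_budding. The part of these chromosome-wide shifts in the values of *Anxa1* was not tested.

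*Gja1*, which encodes connexin 43 (chr10:56253241-56278609, + strand), was near the limit of counting in all 9 control and budding libraries, with 2 to 20 reads each (0.062 to 0.749 CPM). SOX9-mEGFP_spheroid was at 11.0, 8.74 and 10.4 CPM and SOX9-Halo_spheroid at 47.8, 54.5 and 66.4 CPM. It rose over Halo-NLS by 7.28 ± 0.62 (adjusted p = 2.35e-07, edgeR) in the SOX9-Halo line and by 4.79 ± 0.58 (adjusted p = 1.15e-05) in the SOX9-mEGFP line. The antisense gene *Gm68148* shares 143 bases, 1.16%, of its exons.

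Levels were compared between genes per kb of annotated exon. The exons of all annotated transcripts of a gene were merged, which gave 875 bases for *Ly6d*, 4646 for *Ly6a* and 12302 for *Gja1*. The order below therefore depends on this annotation. In CPM, *Ly6a* and *Ly6d* were close in SOX9-mEGFP_spheroid, with means of 437.5 and 427.4. In Halo-NLS the members lay between 0.0295 ± 0.0284 CPM per kb for *Gja1* and 1.91 ± 1.36 CPM per kb (SD, n = 3) for *Ly6d*, the latter at place 8124 of 17552 genes ranked. In SOX9-mEGFP_spheroid *Clu* came first with 790.4 ± 97.2 CPM per kb (place 40), followed by *Ly6d* with 488.4 ± 118.5 (place 68), *Spp1* with 237.2 ± 49.9 (place 124), *Anxa1* with 148.0 ± 38.1 (place 212) and *Ly6a* with 94.2 ± 5.69 (place 339). In SOX9-Halo_spheroid *Ly6d* led with 826.7 ± 212.3 CPM per kb (place 37), before *Clu* with 384.0 ± 56.8 (place 86) and *Anxa1* with 326.6 ± 14.0 (place 104). *Ly6a* followed there with 42.05 ± 15.41 (place 825) and *Spp1* with 6.82 ± 2.58 (place 4532). *Il1rn* and *Gja1* stayed at or under 17.3 CPM per kb in both spheroids. The replicates of the spheroids were close for some members and wide for others, with a coefficient of variation between 4.28% for *Anxa1* and 57.6% for *Il1rn*, both in SOX9-Halo_spheroid.

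**Figure D3:**
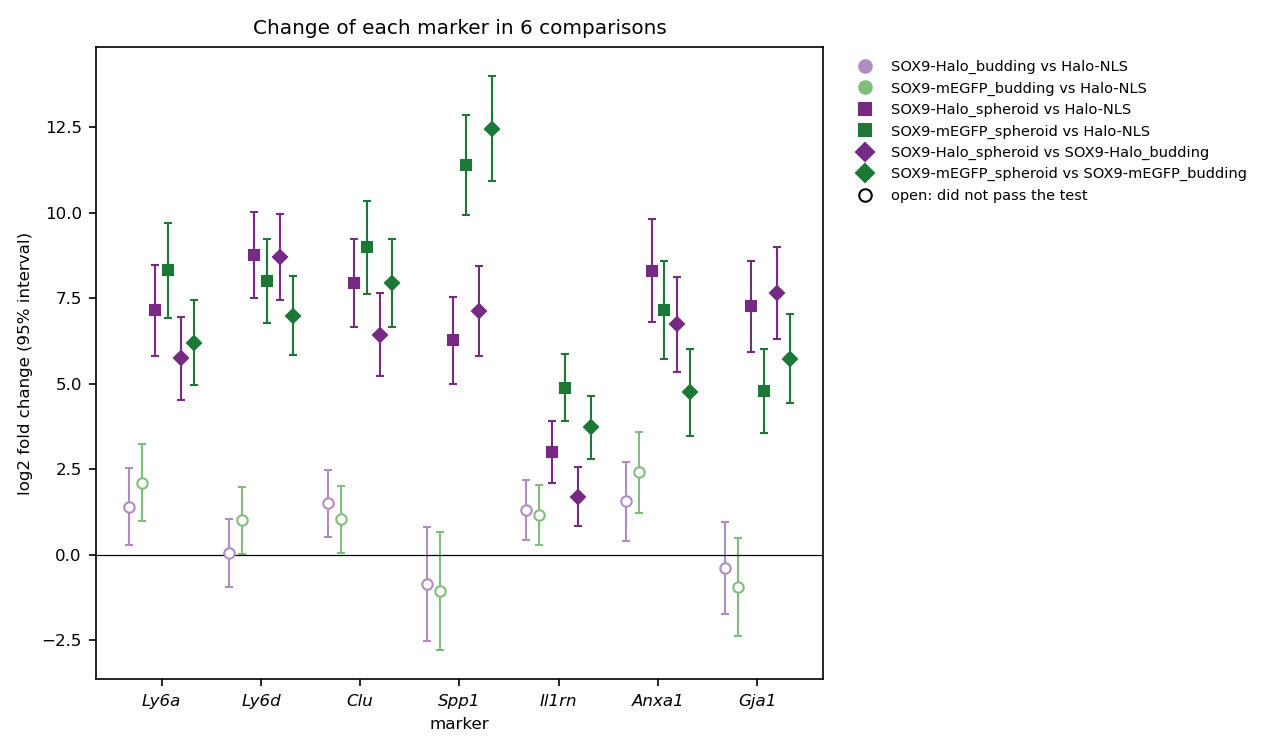
Log2 fold change of each marker with its 95% interval from the SE of the edgeR fit, in the budding organoids against Halo-NLS (circles), the spheroids against Halo-NLS (squares) and the spheroids against budding organoids of the same line (diamonds), with SOX9-Halo in purple and SOX9-mEGFP in green. Filled symbols passed the test: all 28 spheroid results are filled and all 14 budding results are open.

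Comparing each spheroid with budding organoids that carry the same SOX9 transgene gave the same count in the model of all libraries. All 7 members were called higher in SOX9-Halo_spheroid than in SOX9-Halo_budding, where 10.5% of genes were called higher, and all 7 in SOX9-mEGFP_spheroid than in SOX9-mEGFP_budding, where the share was 8.55%. In the SOX9-Halo line, whose replicate numbers were taken as pairs, 6 of the 7 were called with the replicate block in its 6 libraries, all but *Il1rn* (adjusted p = 0.0262). That fit called 27.7% of its 15825 genes in either direction, 1920 of them higher. The rise was greatest for *Spp1* in the SOX9-mEGFP line (12.46 ± 0.72) and for *Ly6d* in the SOX9-Halo line (8.70 ± 0.59). *Sox9* itself differed by 1.10 ± 0.55 in the SOX9-Halo line and 0.77 ± 0.55 in the SOX9-mEGFP line and did not pass (adjusted p = 0.13 and 0.359, edgeR).

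In the budding organoids the members were nearer to the control. None of 7 was called in SOX9-Halo_budding or in SOX9-mEGFP_budding against Halo-NLS by edgeR, where 3.75% and 2.76% of all genes were called in either direction. Unadjusted, p was under 0.05 for 4 and 5 of the 7, and for 37.5% and 34.4% of all genes. *Spp1* and *Gja1* had 0 to 15 and 2 to 20 reads in the Halo-NLS and budding libraries, so the lack of a call says little about them. *Anxa1* (2.41 ± 0.55, adjusted p = 0.0146) and *Ly6a* (2.11 ± 0.52, adjusted p = 0.0205) came nearest in SOX9-mEGFP_budding, and in SOX9-Halo_budding *Clu* did (1.51 ± 0.46, adjusted p = 0.0371). With DESeq2 these 3 results passed, with adjusted p = 1.52e-04, 8.06e-04 and 0.00978, and with the replicate number as a block over all libraries *Anxa1* and *Clu* did. All 3 SOX9-mEGFP_budding libraries lay above all 3 Halo-NLS libraries for 3 members, *Ly6a*, *Il1rn* and *Anxa1*, as for 17.2% of all genes, and in SOX9-Halo_budding for *Il1rn* alone, as for 14.8%. SOX9-Halo_budding replicate 3 and SOX9-mEGFP_budding replicate 3 each held the highest value of their condition for 5 of the 7 members, and Halo-NLS replicate 3 for 6 of the 7. The last of these was also the library with the most genes detected (40375 against a median of 28352). *Spp1* and *Gja1* had log2 fold changes of -0.85 and -0.38 in SOX9-Halo_budding and -1.07 and -0.94 in SOX9-mEGFP_budding, which became positive without Halo-NLS replicate 3.

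Between the budding lines no member passed the test, in a comparison that called 0.456% of all genes (edgeR), and 0 of the 7 had an unadjusted p under 0.05, as did 8.37% of all genes. For *Spp1* (0 to 7 reads per library) and *Gja1* (2 to 15 reads) the lack of a call says little. The difference, SOX9-Halo_budding minus SOX9-mEGFP_budding, ran from -0.95 ± 0.45 for *Ly6d* (95% interval -1.92 to 0.01) to 0.57 ± 0.66 for *Gja1* (-0.85 to 1.98), and the libraries overlapped for all 7. The median of chromosome 15, which holds *Ly6a* and *Ly6d*, was -0.49 in this comparison. That of chromosome 19 was -0.32, beside 0.01 for all genes.

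The spheroid lines, in contrast, differed in the make-up of the set. *Spp1* and *Il1rn* were lower in SOX9-Halo_spheroid than in SOX9-mEGFP_spheroid, with differences of -5.12 ± 0.50 (adjusted p = 2.78e-06, edgeR) and -1.88 ± 0.40 (adjusted p = 0.00281), and *Gja1* was higher by 2.48 ± 0.48 (adjusted p = 0.0012). These 3 of 7 passed, beside 13.2% of all genes. For the other 4 the differences missed the threshold, with -1.16 (95% interval -2.17 to -0.16) for *Ly6a*, -1.04 (-2.01 to -0.08) for *Clu*, 1.14 (0.05 to 2.24) for *Anxa1* and 0.76 (-0.13 to 1.65) for *Ly6d*, and with adjusted p = 0.0895, 0.113, 0.127 and 0.215 in that order. The median of chromosome 19, which holds *Anxa1*, was 0.56 in this comparison, and that of chromosome 15 was -0.42, beside -0.05 for all genes. The 3 libraries of one line lay wholly above those of the other for all 7 members, as they did for 48.6% of the genes tested. Fitted to the 6 spheroid libraries alone, *Ly6a*, *Clu* and *Anxa1* passed as well (adjusted p = 0.00375, 0.00139 and 0.00149), and likewise with the replicate number as a block in those libraries. The call of *Il1rn* was lost without SOX9-Halo_spheroid replicate 2 or 3 or SOX9-mEGFP_spheroid replicate 2 (adjusted p = 0.021, 0.0202 and 0.0113), and that of *Gja1* without SOX9-mEGFP_spheroid replicate 2 (0.0103). Without the last of these libraries 1 of 7 passed.

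Whether the change from budding organoid to spheroid differed between the lines was tested as an interaction. It passed for *Spp1*, with a difference of -5.33 ± 1.01 on the log2 scale, SOX9-Halo line minus SOX9-mEGFP line (adjusted p = 0.00217, edgeR), while 7.39% of all genes passed. *Il1rn* had a difference of -2.02 ± 0.56 (adjusted p = 0.0268), *Anxa1* of 1.99 ± 0.73 (0.0946), *Ly6d* of 1.71 ± 0.62 (0.0868), *Gja1* of 1.92 ± 0.83 (0.166), *Clu* of -1.50 ± 0.64 (0.16) and *Ly6a* of -0.46 ± 0.67 (0.757). The call of *Spp1* was lost without SOX9-Halo_budding replicate 1 or 2 (adjusted p = 0.0133 and 0.0119), at values of -5.29 and -5.13. Without SOX9-Halo_budding replicate 3, *Anxa1* passed at 3.03 (adjusted p = 0.00264), and without SOX9-Halo_spheroid replicate 1, *Il1rn* did at -2.59 (adjusted p = 0.0035). The median of chromosome 19, which holds *Anxa1*, was 0.88 for the interaction, beside -0.08 for all genes. Its part in the value of *Anxa1* was not tested.

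**Figure D4:**
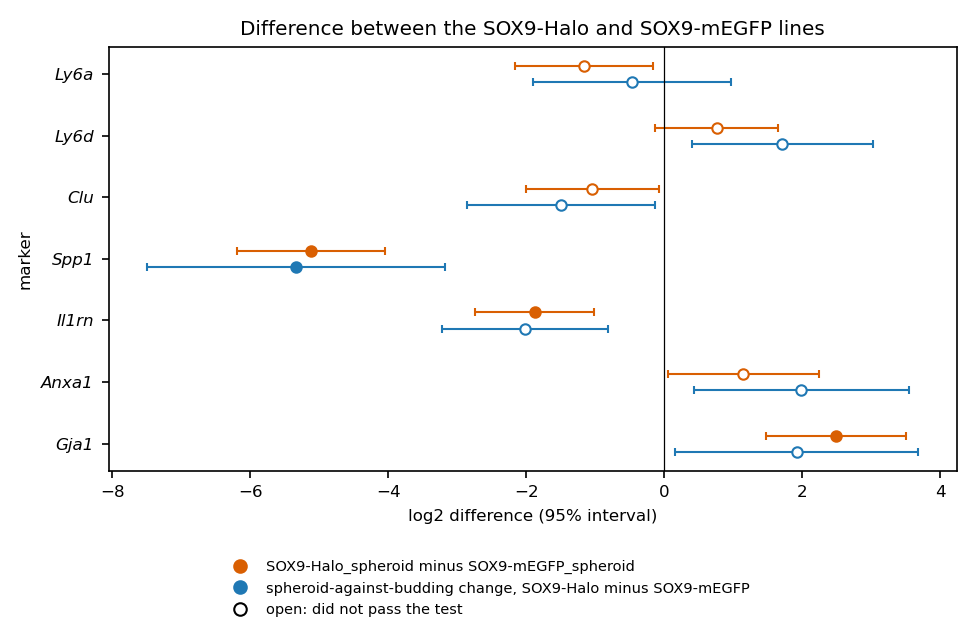
Log2 difference with its 95% interval from the SE of the edgeR fit for each marker, between the spheroids of both lines (orange) and between the lines in the change from budding organoid to spheroid (blue). Values left of 0 are lower in the SOX9-Halo line, filled symbols passed the test, and *Spp1* lies farthest from 0, at -5.12 and -5.33.

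Genes with related roles were followed in 6 lists taken from general knowledge. The lists were made with earlier results of these data known, so their counts are a description and not independent evidence. Of 19 other fetal-like and regenerative genes, some of them also inspected by the study, 17 were called higher and 0 lower in SOX9-mEGFP_spheroid than in Halo-NLS, and 12 higher and 1 lower in SOX9-Halo_spheroid. The last was the growth factor gene *Areg* (-1.76 ± 0.45, and -0.67 ± 0.44 in SOX9-mEGFP_spheroid). Their median log2 fold changes were 3.60 and 2.69, beside 0.03 and -0.01 for all genes tested. Over all genes tested, 15.3% were called higher in SOX9-mEGFP_spheroid and 13.6% in SOX9-Halo_spheroid. *Krt7*, a keratin of simple ductal epithelia, rose by 2.03 ± 0.29 and 2.82 ± 0.29, and *Msln*, the mesothelial surface protein mesothelin, by 5.51 ± 0.73 and 6.94 ± 0.77, in the SOX9-mEGFP and SOX9-Halo spheroids. *Anxa3* and the calcium-binding protein gene *S100a6* were called in both lines, at 6.00 ± 0.40 and 5.92 ± 0.40, and 3.60 ± 0.26 and 2.69 ± 0.25. *Emp1* (2.05 ± 0.49) and *Anxa2* (1.04 ± 0.25) passed in SOX9-mEGFP_spheroid and had values of 1.29 ± 0.48 and 0.19 ± 0.24 in SOX9-Halo_spheroid. In the budding organoids 1 of the 19 was called higher in each line, the alarmin gene *Il33*, and *S100a6* was called lower in both (-1.33 ± 0.24 in SOX9-Halo_budding and -4.41 ± 0.27 in SOX9-mEGFP_budding), with *Krt7* lower in SOX9-Halo_budding (-1.45 ± 0.28).

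Of 19 tested Ly6/uPAR genes other than *Ly6a* and *Ly6d*, 13 were called higher and 1 lower in SOX9-mEGFP_spheroid, and 10 higher and 1 lower in SOX9-Halo_spheroid (medians 3.83 and 2.71). These 19 include the 9 tested neighbours on chromosome 15 given above. The gene called lower was *Lypd8*, a GPI-anchored protein of colonic enterocytes that binds flagella of bacteria. It was at 192.5 to 227.0 CPM in Halo-NLS, 20 to 42 CPM in SOX9-mEGFP_spheroid and 0 to 0.161 CPM in SOX9-Halo_spheroid. *Plaur*, the urokinase receptor, rose by 3.44 ± 0.32 in both. The list held 34 genes, and those left had too few counts to be tested.

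Among connexins other than *Gja1*, 5 of 19 had enough counts. *Gjb5*, a connexin of skin and placenta, rose in the SOX9-mEGFP and SOX9-Halo spheroids (6.66 ± 0.90 and 7.35 ± 0.90). It reached 3.2 to 4.6 CPM and 5.6 to 8.2 CPM there. These folds rest on a baseline of 0, 0 and 3 reads in Halo-NLS. *Gjb2* rose by 1.38 ± 0.27 in SOX9-mEGFP_spheroid and was at 0.69 ± 0.27 in SOX9-Halo_spheroid. *Gjb1*, the connexin of liver and adult gut epithelium, fell by 1.59 in SOX9-Halo_spheroid (adjusted p = 2.88e-04, edgeR) and was at 0.29 ± 0.28 in SOX9-mEGFP_spheroid.

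Of 9 tested interleukin-1 family ligands and receptors, 3 were higher in SOX9-mEGFP_spheroid and 4 in SOX9-Halo_spheroid, and none was lower (medians 1.12 and 2.42). *Il33*, which also stands in the list above, rose by 7.50 ± 0.47 and 9.77 ± 0.50, from 3 to 5 reads per Halo-NLS library. It was already called higher in SOX9-mEGFP_budding (3.32 ± 0.46) and SOX9-Halo_budding (2.69 ± 0.47). The receptor that *Il1rn* blocks, *Il1r1*, rose as well, by 6.81 ± 0.60 and 7.89 ± 0.60, from 0 to 0.075 CPM in Halo-NLS to 4.42 to 4.71 CPM and 7.65 to 12.7 CPM. Its accessory chain *Il1rap* was called in SOX9-Halo_spheroid (2.15 ± 0.39), with 1.12 ± 0.39 in SOX9-mEGFP_spheroid, and *Il18r1* in both (2.60 ± 0.58 and 2.42 ± 0.58). *Il1b* had too few counts to be tested.

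Of the receptors of osteopontin, *Cd44*, *Itgav* and *Itgb1* rose in both spheroids. The values in SOX9-mEGFP_spheroid and SOX9-Halo_spheroid were 5.89 ± 0.55 and 4.37 ± 0.52 for *Cd44*, 3.93 ± 0.47 and 2.82 ± 0.45 for *Itgav*, and 1.85 ± 0.37 and 2.02 ± 0.37 for *Itgb1*. *Itga9* rose by 3.37 ± 0.40 and 6.82 ± 0.43. *Cd44* was also called higher in both budding lines, by 2.64 ± 0.48 in SOX9-mEGFP_budding and 2.59 ± 0.48 in SOX9-Halo_budding. *Itgb5* fell by 2.67 in SOX9-Halo_spheroid (adjusted p = 1.41e-05, edgeR) and was at -0.69 ± 0.32 in SOX9-mEGFP_spheroid. In this list of SIBLING genes and receptors, 7 of 13 were tested, with 4 called higher and 0 lower in SOX9-mEGFP_spheroid and 5 higher and 1 lower in SOX9-Halo_spheroid (medians 1.85 and 2.82). The other SIBLING genes, which neighbour *Spp1* in the genome and serve in bone and tooth, had too few counts. For annexin A1 and clusterin 2 of 6 receptor genes were tested. The lipoprotein receptor gene *Lrp8* rose by 1.16 ± 0.29 and 1.44 ± 0.29, and *Vldlr* by 1.43 ± 0.39 in SOX9-mEGFP_spheroid, with 0.69 ± 0.38 in SOX9-Halo_spheroid. The formyl peptide receptors *Fpr1*, *Fpr2* and *Fpr3* had too few counts to be tested.

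**Figure D5:**
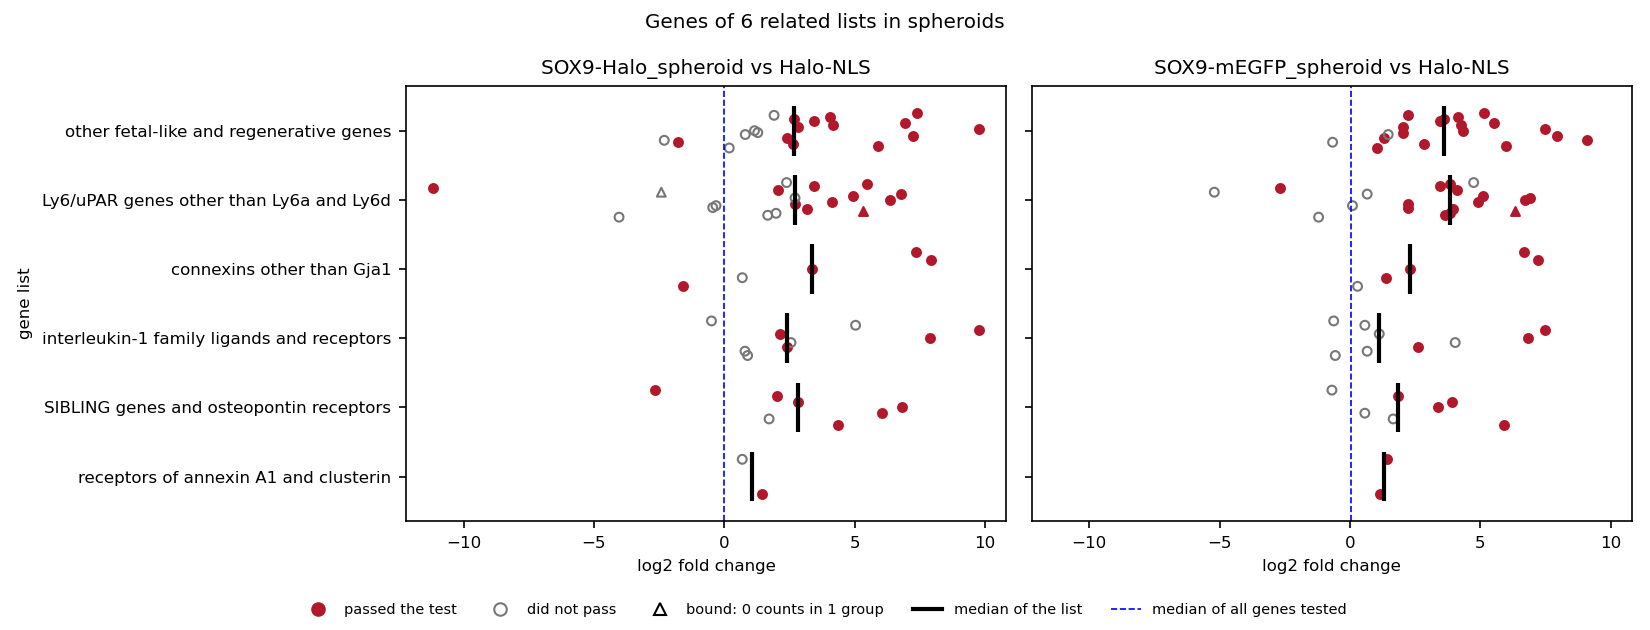
Log2 fold change against Halo-NLS of the tested genes of 6 lists, with SOX9-Halo_spheroid on the left and SOX9-mEGFP_spheroid on the right, 1 point per gene. Red points passed the test, triangles are bounds, black bars mark the median of the list (2.69 on the left and 3.60 on the right for the other fetal-like genes) and dashed lines the median of all genes tested (-0.01 and 0.03).

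The genes most like each member were found by Pearson's r of log2 CPM over the 15 libraries, among 11002 genes whose normalized count averaged 100 or more. The libraries form a low set of 9 and a high set of 6 for every member, share their depth and scaling, and are not independent points, so r is a description without a p. *Dsg3*, a desmosomal cadherin of stratified epithelium and 1 of the squamous markers above, was among the 3 nearest genes of both *Clu* (r = 0.994) and *Ly6a* (0.990). *Ly6a* was otherwise closest to *Arhgap40* (0.991) and *Gcnt1* (0.988), and *Clu* to *Ano1* (0.991) and the caveolin *Cav2* (0.990). For *Anxa1* the nearest were *Psg17* (0.991), *Cgnl1* (0.988) and *Arl4c* (0.988), and for *Ly6d* *Atxn10* (0.992), *Jdp2* (0.992) and *Eya2* (0.992). *Gja1* was nearest to *Clip4* (0.987), *Amotl1* (0.987) and *Tmem40* (0.984). *Il1rn* (*Gcnt3* 0.980, *Depp1* 0.969, *Prl2c3* 0.969) and *Spp1* (*Trf* 0.982, *Rhox5* 0.978, *Elp2* 0.977) had the lowest values at first place.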

How the data were processed

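Per the labels and the study's methods, the authors trimmed adapters with cutadapt (4.5), aligned reads to mm39 (GRCm39) with STAR, keeping unique alignments, and counted reads per gene with HTSeq (2.0.2) in union mode without strand. The deposited files hold raw counts per gene, 1 file per library. They contained no columns of other samples. A deposited table of normalized values and tables of the authors' own fold changes and p-values for 7 comparisons were not used.

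Counts of the 15 libraries were filtered (filterByExpr by condition, 17560 genes kept), scaled by TMM and fitted in 1 model with a term per condition by edgeR's quasi-likelihood method (4.0.16, R 4.3.3), with Benjamini-Hochberg adjustment over all genes tested. Calls required an adjusted p of 0.01 or less, a log2 fold change of 1 or more in size and normalized counts averaging 10 or more. CPM are counts per 1000000 of the TMM-scaled library size. SE is the log2 fold change over the square root of F, and 95% intervals use the t distribution of the fit. The procedure was tested on simulated data. Alternatives were DESeq2's size factors (RLE) and Wald test (1.42.0), library sizes alone, no filter, a log2 fold change of at least 2, the compared libraries alone, the replicate number as a block, and leaving out each library. At 28062722 to 40559766 counts per library, a count of 3 was taken as the floor. Figures and tables used Python 3.11.15 with numpy 2.4.6, pandas 2.3.3 and matplotlib 3.10.9.

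Deviations of same-numbered libraries from their condition means correlated above 0.1 in all 3 pairs for SOX9-Halo_budding and SOX9-Halo_spheroid (r = 0.403, 0.234 and 0.344 over 11054 genes), and in no other pair of conditions, so the numbers were taken as pairs there. Named were the 7 members, of each list up to 4 called genes by mean normalized count in each spheroid comparison with Halo-NLS, the tested Ly6 genes near *Ly6a* and *Ly6d*, genes overlapping a member, and the 3 genes most like each member. *Areg*, single genes of the marker lists, the values of list genes in budding organoids, and the untested *Il1b*, *Fpr1*, *Fpr2* and *Fpr3* were added after values were seen. The members and lists were chosen with earlier results of these data known. Some genes that the rule would name are not reported here.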

Additional observations from a re-analysis of the deposited data

Results flagged for a closer look

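*Spp1*, the gene of osteopontin, was singled out because the change from budding organoid to spheroid differed between the lines by the interaction test, with a log2 difference of -5.33, SOX9-Halo minus SOX9-mEGFP (adjusted p = 0.00217, edgeR). The change was 7.13 in the SOX9-Halo line and 12.46 in the SOX9-mEGFP line, from at most 7 reads in each budding library.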

How the results depend on the processing

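Of 916 log2 fold changes of members under alternatives, 859 kept their direction and call, 13 lost the call, 31 gained it and 13 turned direction. In the 4 comparisons of spheroids with Halo-NLS or budding organoids, the only call of a member that was lost was that of *Il1rn* in the SOX9-Halo line, as given above and with a log2 fold change of at least 2. Against Halo-NLS, 0 of 7 members were called in SOX9-Halo_budding. Without the filter it was 4 (4.45% of the 52932 genes with a count), with DESeq2 1 (3.03%) and with the replicate number as a block over all libraries 1 (4.99%). In SOX9-mEGFP_budding the count went from 0 to 5 without the filter (3.76% of all genes), 2 with DESeq2 (2.26%) and 1 with the replicate block, over all libraries (3.64%) or the compared ones (1.4%). Between the spheroid lines 3 became 6 without the filter (5.61% of all genes), in the compared libraries alone (18.9%) and with the block in them (18.7%), and 1 to 3 with a library left out (9.34% to 11.6%). For the interaction, 1 became 5 without the filter (3.55%), 2 with DESeq2 (3.23%) and 0 to 2 with a library left out (5.02% to 6.88%).

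Leaving out 1 library turned the direction of low or small differences. The ranges against Halo-NLS in SOX9-Halo_budding were -0.30 to 0.80 for *Ly6d*, -1.31 to 0.55 for *Spp1* and -0.87 to 0.72 for *Gja1*, and in SOX9-mEGFP_budding -1.53 to 0.33 for *Spp1* and -2.06 to 0.16 for *Gja1*. Between the budding lines they were -0.24 to 0.75 for *Clu*, -0.31 to 0.53 for *Il1rn* and -0.31 to 0.63 for *Spp1*, and for the interaction of *Ly6a* -0.81 to 0.55. *Spp1* in budding organoids and *Gja1* in SOX9-mEGFP_budding could not be fitted in the compared libraries alone, where the filter removed them. The cause of the other changes was not tested.

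Of all genes, 659 were called in SOX9-Halo_budding against Halo-NLS, 1177 with library sizes alone, 2357 without the filter, 1602 with DESeq2, 249 at a log2 fold change of at least 2, 5 in the compared libraries alone, 27 with the block in them, and 201 to 2370 with a library left out. In SOX9-mEGFP_budding the count was 484, and 728, 1991, 1197, 264, 103, 211 and 216 to 2184 in the same order, the highest without Halo-NLS replicate 1 in both cases. Between the budding lines it was 80, with 280 without the filter, 196 with DESeq2, 19 in the compared libraries, 9 with the block and 46 to 101 with a library left out. In the spheroids against Halo-NLS, 5074 and 4823 became 3183 and 2629 at a log2 fold change of at least 2, and 2874 in SOX9-mEGFP_spheroid with the block in the compared libraries. Outside SOX9-Halo_budding and SOX9-Halo_spheroid, same-numbered libraries did not correlate above 0.1 in all 3 pairs, though some pairs did. Halo-NLS and SOX9-Halo_budding had r = 0.470 and 0.817 for replicates 1 and 2 and -0.055 for replicate 3. The labels do not state what the numbers share. A call lost or gained under the block there was therefore not read as a weaker or stronger effect.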

Other observations

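Genes of the 6 lists also differed between the spheroid lines, in both directions, and 4 are given here that were chosen after their values were seen. *Basp1*, a membrane-bound signalling protein of growth cones counted among fetal-like intestinal genes, was at 70.6 to 101.5 CPM in SOX9-mEGFP_spheroid, 2671 to 3576 reads per library. It had 0 to 2 reads in each SOX9-Halo_spheroid library and 0 to 12 in the 9 Halo-NLS and budding libraries. *F3*, the gene of tissue factor, which starts blood clotting, was at 81.2 to 105 CPM in SOX9-mEGFP_spheroid and 7.00 to 16.6 CPM in SOX9-Halo_spheroid, a log2 difference of -3.17 ± 0.46 (SOX9-Halo minus SOX9-mEGFP, adjusted p = 1.14e-04, edgeR), beside 2.44 to 8.76 CPM in the Halo-NLS and budding libraries.

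The opposite order was found for *Lypd3*, a Ly6/uPAR protein of stratified epithelia, with 15.6 to 19.1 CPM in SOX9-Halo_spheroid and 0.0529 to 0.426 CPM in SOX9-mEGFP_spheroid (6.14 ± 0.61, adjusted p = 3.23e-06, edgeR). *Itga8*, an integrin chain that binds osteopontin, had 93 to 163 reads per library in SOX9-Halo_spheroid and 1 to 4 in SOX9-mEGFP_spheroid, whose *Spp1* was the higher of the pair.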
